A study of Mus musculus with 16 samples.

Results

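Chemokine and chemokine receptor genes were examined in ATAC-Seq, an assay in which a transposase cuts open chromatin, of mouse hematopoietic progenitors. The set held every protein-coding mouse gene of the GENCODE M21 annotation whose symbol starts with Ccl, Cxcl, Cx3cl, Xcl, Ccr, Cxcr, Cx3cr, Xcr or Ackr followed by a number. This gave 60 genes, of which 23 encode CC ligands, 12 CXC ligands, 1 a CX3C ligand, 1 an XC ligand, 19 receptors and 4 atypical receptors. Their sites were the open regions within 50 kb of a gene 5' end, each counted once, which came to 394 of 90549 regions.

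The cells were fetal liver progenitors immortalized with estrogen-regulated HoxB8. They were compared in 4 groups of 4 libraries. hi-77+/+ empty cells have an intact Gata2 -77 enhancer and were infected with an empty retrovirus. hi-77-/- cells lack this enhancer on both alleles and received the empty retrovirus (hi-77-/- empty), one carrying GATA2 (hi-77-/- GATA2), or one carrying a GATA2 with 9 amino acids inserted between its zinc fingers (hi-77-/- 9aa-Ins), all for 3 days. Per the labels, GFP+ cells, which carry the vector, were isolated by flow cytometry for every group. The genotypes are also different cell lines, so the deletion and the line cannot be told apart, and the GATA2 added in the rescued groups came from a vector, beside what hi-77-/- cells still make from their own locus.

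Chemokines are small secreted proteins that bind G protein-coupled receptors and steer the migration of leukocytes. In fetal liver and bone marrow, Cxcl12 and its receptor Cxcr4 retain progenitors and neutrophils, Cxcr2 and its ligands mobilize neutrophils, and Ccl2 acting through Ccr2 draws monocytes out of the marrow. Atypical receptors bind chemokines without G protein signaling and clear them. GATA2 binds the GATA motif in DNA and both activates and represses genes in stem and progenitor cells, and the -77 enhancer drives its expression in progenitors.

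A selection of the sites named below is shown first, as the 151 bases around the summit of the strongest peak of the region. The bases were taken from the mouse reference of RefSeq (GRCm38, the mm10 build of the files) and read on the plus strand. Capitals mark a GATA motif, GATAA or GATAG after an A or a T on either strand, which 20.8% of all 90549 regions hold in a window of this length. A site is named by the nearest 5' end of the family and its distance, with plus for downstream. The first group had higher scores with GATA2 than with the empty vector, and all but Cxcr4 +21.7 kb held a GATA motif. This share follows from the selection: of all 29 sites that rose in this comparison, 14 held one (48.3%). Ccl3 +7.7 kb and Ccr4 +3.2 kb, which are not shown, rose by 51.0 and 48.4 and held none.
Cxcr5 -3.5 kb, chr9:44565463-44565613: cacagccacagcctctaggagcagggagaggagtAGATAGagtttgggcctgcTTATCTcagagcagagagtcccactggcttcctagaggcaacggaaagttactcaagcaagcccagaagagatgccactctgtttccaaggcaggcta
Cxcr6 -49.4 kb, chr9:123756879-123757029: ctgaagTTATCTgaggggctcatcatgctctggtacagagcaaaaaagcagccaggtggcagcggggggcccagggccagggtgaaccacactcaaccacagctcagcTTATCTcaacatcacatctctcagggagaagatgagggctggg
Ccl5 -19.5 kb, chr11:83550192-83550342: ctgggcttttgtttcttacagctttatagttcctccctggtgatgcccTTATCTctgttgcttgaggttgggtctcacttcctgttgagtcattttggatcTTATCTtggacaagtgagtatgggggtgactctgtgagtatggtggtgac
Ccr1l1 -19.3 kb, chr9:123997828-123997978: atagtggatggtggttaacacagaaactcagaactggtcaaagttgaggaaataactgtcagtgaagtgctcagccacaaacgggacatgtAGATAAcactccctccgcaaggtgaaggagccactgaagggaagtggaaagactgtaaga
Ccr6 +36.2 kb, chr17:8272444-8272594: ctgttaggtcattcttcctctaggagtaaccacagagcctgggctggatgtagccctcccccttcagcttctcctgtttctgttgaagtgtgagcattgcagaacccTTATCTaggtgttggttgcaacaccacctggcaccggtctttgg
Cxcr4 +21.7 kb, chr1:128570153-128570303: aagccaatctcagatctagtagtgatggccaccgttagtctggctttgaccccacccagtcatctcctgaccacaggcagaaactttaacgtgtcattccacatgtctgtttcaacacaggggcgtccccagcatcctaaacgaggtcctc

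The next group had higher scores in hi-77-/- empty cells than in hi-77+/+ empty cells, and Ccl2 -12.4 kb and Ccr6 -36.5 kb had lower scores with GATA2. Ccl2 -20.1 kb held a GATA motif and the others did not.
Ccl2 -12.4 kb, chr11:82022822-82022972: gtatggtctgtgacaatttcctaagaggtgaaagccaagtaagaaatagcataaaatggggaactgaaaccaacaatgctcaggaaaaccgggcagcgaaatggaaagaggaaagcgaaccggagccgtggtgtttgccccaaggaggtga
Ccl2 -20.1 kb, chr11:82015260-82015410: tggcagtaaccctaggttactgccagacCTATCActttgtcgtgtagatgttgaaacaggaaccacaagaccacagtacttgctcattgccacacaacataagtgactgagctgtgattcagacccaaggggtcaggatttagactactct
Ccr6 -36.5 kb, chr17:8199178-8199328: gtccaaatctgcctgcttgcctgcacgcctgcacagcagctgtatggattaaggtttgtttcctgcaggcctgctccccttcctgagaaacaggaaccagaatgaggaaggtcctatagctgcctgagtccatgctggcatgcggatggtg

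The last site, Ccr1 +30.3 kb, scored highest with 9aa-Ins and held 1 GATA motif.
Ccr1 +30.3 kb, chr9:123938078-123938228: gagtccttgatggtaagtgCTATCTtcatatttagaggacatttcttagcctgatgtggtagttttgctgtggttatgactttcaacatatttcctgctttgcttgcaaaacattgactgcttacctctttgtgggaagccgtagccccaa

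Each library had 50195 to 112267 deposited peaks, and the 49000 most significant peaks of chromosomes 1 to 19 and X were used from each. The peak score of a region was its best peak's place in that list, from 100 for the most significant peak to just above 0 for the last, and 0 where the list held no peak. A score of 0 therefore does not show closed chromatin. A score reports how a site ranked within its library, and more cells open at a site cannot be told apart from more accessibility per cell. The last peak used had a -log10 q-value of 5.877 to 7.145 in hi-77+/+ empty and 4.942 to 5.659 in hi-77-/- empty libraries. It was 2.867 to 4.994 in hi-77-/- GATA2 and 6.386 to 9.341 in hi-77-/- 9aa-Ins libraries, so lists of equal length reached weaker peaks in some groups than in others. The median peak width was 293 to 378 bases in hi-77-/- 9aa-Ins libraries and 177 to 277 in all others. The part of these group differences in the results was not tested. Peaks covered 0 to 32.6% of the Gata2 coding bases in hi-77+/+ empty, 7.64 to 8.75% in hi-77-/- empty, 46.5 to 73.7% in hi-77-/- GATA2 and 89.9 to 99.6% in hi-77-/- 9aa-Ins libraries, so coverage was highest in the groups that received a GATA2 vector, whose insert holds these bases. In a window around the position of the -77 enhancer, peaks covered 1196 to 1552 bases in hi-77+/+ empty and 78 to 609 in hi-77-/- empty libraries. With GATA2 they covered 0 to 256 and with 9aa-Ins 323 to 853. The window was thus not free of peaks in hi-77-/- cells, and how far it reaches beyond the deletion was not tested. Of 8 progenitor markers (among them Ptprc, Kit and Runx1), 8 had a 5' end peak in every library, while 5 of 6 T and NK cell markers and 5 of 6 hepatocyte markers had none in any library.

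Chemokine and receptor chromatin was mostly distal. Of the 394 sites, 202 were intergenic, 107 intronic, 48 in coding exons and 37 in untranslated exons, and 26 lay within 1 kb of a family 5' end. A site within the window does not have to serve the family gene: 145 sites lay nearer to the 5' end of a gene outside the family, and 30 of these within 1 kb of it, whereas 146 sites lay within 50 kb of several family genes because the genes are clustered. A peak was present in all 16 libraries at 77 sites (19.5%, against 23.4% of all regions) and in 1 library at another 77. The limma test was run on the regions with a peak in at least 4 libraries, which kept 265 of the 394 sites. The 129 other sites are described by presence only.

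Within 1 kb of the 5' end, 14 genes had a peak in 4 of 4 libraries of at least 1 group and 41 genes had none in any library. Cxcr4, Ccl2, Ccl3, Ccl9 and Ccl25 had one in all 16 libraries, though the Ccl25 region also covers the 5' end of Elavl1. By group, 8 genes had a 5' end peak in 4 of 4 libraries of hi-77+/+ empty, 11 of hi-77-/- empty, 7 of hi-77-/- GATA2 and 12 of hi-77-/- 9aa-Ins. The others among the 14 were Ackr3, Ccl24, Ccr1, Ccr10, Cx3cl1, Cxcl2, Cxcl9, Cxcl10 and Cxcr3. Ccr7, Ccr3, Cxcl12, Cxcl16, Ccl5 and Ccl6 were among the genes without any, and Ccl4, Ccr2, Cxcr2 and Cx3cr1 had a 5' end peak in at most 3 libraries of a group. Ccl24, encoding an eosinophil attractant, had no peak at its 5' end in hi-77+/+ empty libraries and scored 3.84 to 23.5 in hi-77-/- empty, 0 to 34.8 with GATA2 and 22.0 to 46.9 with 9aa-Ins, and none of the 4 comparisons passed. The Cxcl10 5' end, of an interferon-induced ligand of Cxcr3, overlapped between all groups, with 47.3 ± 15.6, 32.6 ± 13.4, 28.2 ± 20.8 and 48.9 ± 11.4 (SD, n = 4 each) in hi-77+/+ empty, hi-77-/- empty, GATA2 and 9aa-Ins libraries. No peak lay within 50 kb of Ccl19, Ccl21a, Ccl21b or Ccl27b on chromosome 4, a stretch with near-identical gene copies where reads are hard to place, so this absence is uncertain.

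The number of the 394 sites with a peak was lowest in hi-77+/+ empty cells, at 173.5 ± 5.26 (SD, n = 4, range 169 to 179). It was 201.5 ± 5.51 in hi-77-/- empty (196 to 208), 197.2 ± 9.95 in hi-77-/- GATA2 (189 to 211) and 217.0 ± 4.55 in hi-77-/- 9aa-Ins (212 to 223). The hi-77+/+ empty counts lay below those of the other groups, and the hi-77-/- 9aa-Ins counts lay above them. Over all 90549 regions, 47.94 to 49.97% had a peak in hi-77+/+ empty libraries, 48.2 to 49.7% in hi-77-/- empty, 45.2 to 48.6% in hi-77-/- GATA2 and 50.2 to 52.6% in hi-77-/- 9aa-Ins libraries. The 9aa-Ins libraries were thus highest over all regions too, whereas the hi-77+/+ empty libraries were not the lowest.

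The first comparison asked how chemokine chromatin differed without the -77 enhancer. Of 265 tested sites, 70 rose in hi-77-/- empty against hi-77+/+ empty cells (26.4%, against 21.2% of all tested regions) and 45 fell (17.0%, against 19.1%). The median difference was 1.77 score points over the sites and 0 over all tested regions. Of 118 tested receptor sites 32 rose and 12 fell, of 70 CC ligand sites 23 and 14. Of 55 CXC ligand sites 10 rose and 10 fell, and of 15 atypical receptor sites 2 and 6. By presence, 24 of 394 sites had a peak in 4 of 4 hi-77-/- empty and 0 of 4 hi-77+/+ empty libraries (6.09%, against 3.59% of all regions), and 11 the reverse (2.79%, against 2.11%).

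**Figure D1:**
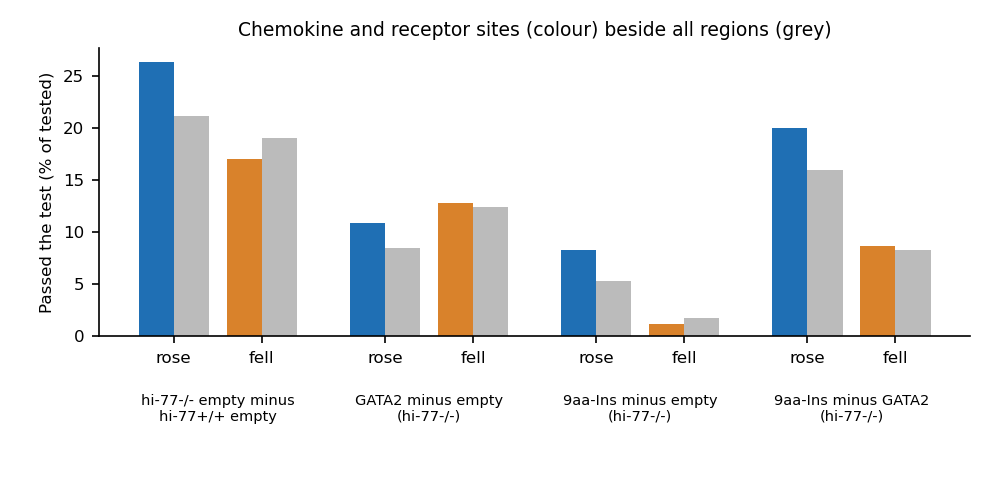
Share of tested chemokine and receptor sites (blue for higher, orange for lower; n = 265) that passed adjusted p 0.05 in each of the 4 comparisons, in percent, beside the share of all 57174 tested regions in grey. Blue bars stand above their grey bars in all 4 comparisons, as for hi-77-/- empty against hi-77+/+ empty, 26.4% against 21.2%; no test was made of these gaps.

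Ligand sites on chromosome 11 were among those that rose. At the Ccl2 5' end (chr11:82035096-82035737), where the gene for the main monocyte attractant starts, hi-77+/+ empty libraries scored 31.5, 35.7, 23.9 and 1.38 and hi-77-/- empty libraries 83.9, 85.2, 86.5 and 81.4. The groups did not overlap, and the difference was 61.2 ± 6.59 (SE; adjusted p = 8.58e-07). At Ccl2 -20.1 kb, no hi-77+/+ empty library had a peak, and hi-77-/- empty libraries scored 62.3, 57.0, 65.7 and 63.3 (adjusted p = 1.20e-07). The Ccl9 site 0.8 kb inside the gene, which encodes a myeloid CC ligand, scored 60.9 to 70.1 in hi-77+/+ empty and 93.5 to 96.3 in hi-77-/- empty cells, a difference of 29.9 ± 1.77 (adjusted p = 5.62e-10). The Ccl3 5' end, of a ligand of Ccr1, went from 70.04 ± 8.11 to 98.5 ± 0.671 (SD, n = 4; adjusted p = 2.36e-07). Cxcl16 -29.7 kb (Cxcl16 is the ligand of Cxcr6) had no peak in hi-77+/+ empty cells and scored 58.2 ± 6.72 in hi-77-/- empty cells (adjusted p = 1.01e-06).

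In the cluster from Ccl2 to Ccl1, 6 of 11 tested sites rose and 0 fell, and in the cluster from Ccl5 to Ccl4, 14 of 21 rose and 0 fell. Over chromosome 11, 30 of 55 sites rose and 0 fell, but scores on this chromosome also rose in general. Of all its tested regions 28.6% rose and 11.1% fell, and at regions open in all 16 libraries the median difference was 3.38. With scores centred by chromosome, 27 of the 55 sites rose and 1 fell, against 23.2% and 16.4% of all regions of the chromosome.

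Among receptor genes, sites rose at Ccr2, Cx3cr1, Cxcr2 and Xcr1. Ccr2 +1.2 kb (chr9:124103147-124103857), in the receptor for Ccl2, scored 23.7, 27.2, 24.6 and 0 in hi-77+/+ empty and 79.0, 82.3, 83.4 and 79.5 in hi-77-/- empty cells. The groups were well apart, with a difference of 62.2 ± 5.08 (adjusted p = 3.60e-08). Cx3cr1, the fractalkine receptor of monocytes, had rises at its intronic sites +14.4 kb (39.6 ± 10.1 to 79.8 ± 5.77, adjusted p = 0.000738) and +26.1 kb (29.2 ± 21.6 to 64.9 ± 6.42, adjusted p = 0.00402). Cx3cr1 +45.2 kb, 0.497 kb from the 5' end of Xirp1, had no peak in hi-77+/+ empty and scored 50.8 to 57.5 in hi-77-/- empty cells (adjusted p = 1.47e-05). Cxcr2 +5.6 kb, in the neutrophil receptor for Cxcl2, went from 11.99 ± 17.3 to 51.8 ± 11.9 (adjusted p = 0.000782). Xcr1 +16.5 kb, in an exon of Fyco1, went from no peak to 64.3 ± 3.92 (adjusted p = 4.90e-07). Xcr1 encodes a receptor of cross-presenting dendritic cells. Cxcr5 +49.4 kb, Ccr10 +28.2 kb and Cxcl17 +27.7 kb rose by 55.9 to 59.8.

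Cell type markers also differed between these 2 groups. The mean 5' end score of 6 neutrophil markers was 9.79 to 18.9 in hi-77+/+ empty and 23.7 to 30.0 in hi-77-/- empty libraries, with 1 to 3 and 2 to 4 of them holding a peak. Megakaryocyte markers scored 13.6 to 18.7 and 24.1 to 30.4, with Vwf at 0 in all 16 libraries, and erythroid markers 33.2 to 37.4 and 21.7 to 24.8, with Alas2 and Hbb-bs at 0 in all 16. Monocyte, macrophage and dendritic cell markers overlapped, at 17.3 to 24.6 and 18.96 to 27.8, with Csf1r and Ly86 at 0 in all 16. The part of these markers in the results was not tested.

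Scores were lost at Ackr3, the scavenging receptor for Cxcl12. Its 5' end (chr1:90203706-90204290) scored 87.4, 83.7, 78.03 and 86.6 in hi-77+/+ empty and 19.7, 5.24, 1.86 and 21.3 in hi-77-/- empty cells, a difference of -71.9 ± 8.41 (adjusted p = 2.12e-06). It stayed low with GATA2, with 1 of 4 libraries at 35.5 and the others without a peak, and with 9aa-Ins, at 0 to 14.5. Cxcr5 -3.5 kb, upstream of the B cell follicle receptor, scored 24.96 to 58.02 against no peak (adjusted p = 0.000476). Among ligands, Ccl28 -19.5 kb, in an intron of Tmem267, fell by 51.9 (adjusted p = 0.000196), and Cxcl17 +32.7 kb, in a coding exon of Lipe, scored 64.5 to 80.5 in hi-77+/+ empty libraries and had no peak in the 12 others.

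On chromosome 8, which holds Ccl17, Ccl22, Cx3cl1 and Ccl25, 1 of 24 tested sites rose and 13 fell. Ccl17 -9.4 kb, near the gene for a ligand of Ccr4, went from 72.7 ± 15.2 to 17.3 ± 15.8 (adjusted p = 0.000531), with falls also at Ccl17 +2.3 kb (adjusted p = 0.00144) and +12.2 kb (adjusted p = 0.00126). The Cx3cl1 5' end, of the ligand fractalkine, went from 40.3 ± 11.6 to 10.3 ± 7.71 (adjusted p = 0.00888). Scores fell over this chromosome as a whole: 44.4% of its tested regions fell and 9.18% rose, and regions open in all 16 libraries had a median difference of -5.64. Centred by chromosome, 11 of the 24 sites fell and 1 rose, against 32.1% and 15.9% of all regions of chromosome 8.

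The second comparison asked what GATA2 did in hi-77-/- cells. Against the empty vector, 29 of 265 sites rose (10.9%, against 8.51% of all tested regions) and 34 fell (12.8%, against 12.4%), and the median difference was 0 over the sites and 0 over all regions. Of 118 tested receptor sites 18 rose and 13 fell, and of 70 CC ligand sites 7 and 10. The receptor gene cluster on chromosome 9 that includes Ccr9, Cxcr6, Xcr1, Ccr1 and Ccr2 had 9 that rose and 1 that fell among 39 tested. By presence, 11 of 394 sites had a peak in 4 of 4 hi-77-/- GATA2 and 0 of 4 hi-77-/- empty libraries (2.79%, against 1.73%), and 10 the reverse (2.54%, against 2.23%).

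Cxcr4 +21.7 kb (chr1:128569993-128570626) rose most. hi-77-/- empty libraries had no peak there, hi-77-/- GATA2 libraries scored 60.8, 82.7, 79.1 and 75.4, and hi-77+/+ empty libraries 0, 32.4, 9.19 and 10.97. The difference was 74.5 ± 7.54 (adjusted p = 6.86e-07). The Cxcr4 5' end itself, with 70.3 ± 3.85 in hi-77-/- empty and 63.0 ± 1.90 in hi-77-/- GATA2 libraries, did not pass (adjusted p = 0.147). Cxcr6 -49.4 kb, in an intron of Ccr9, had peaks in hi-77-/- GATA2 libraries only, at 68.4, 46.1, 64.1 and 38.6. Ccr1l1 -19.3 kb was likewise without a peak in the other 12 libraries and scored 49.6, 46.1, 37.2 and 23.0 with GATA2. These 2 sites reached the minimum of 4 libraries only through the group in which they were high, so no p-value is given for them. Both windows printed above hold GATA motifs, 2 at the Cxcr6 site and 1 at the Ccr1l1 site.

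Cxcr5 -3.5 kb, with 2 GATA motifs, was the 1 site of the family with peaks in all 8 hi-77+/+ empty and hi-77-/- GATA2 libraries and none in the 8 others (0.254% of sites, against 0.0541% of all regions). It scored 59.0, 46.3, 58.1 and 31.8 with GATA2 (adjusted p = 8.41e-05 against hi-77-/- empty). Ccr4 +3.2 kb, in an intron of a receptor of helper T cells, went from 32.7 ± 12.3 to 81.1 ± 3.12 (adjusted p = 2.19e-05). The Ccr1 5' end, of the receptor for Ccl3 and Ccl5, went from 0.378, 0, 0 and 31.4 to 43.5, 55.0, 54.2 and 56.3 (adjusted p = 0.000811), and Ccr6 +36.2 kb from no peak to 14.2, 60.7, 47.9 and 61.1 (adjusted p = 0.000534). Among ligand sites, Ccl3 +7.7 kb went from 25.8 ± 16.1 to 76.8 ± 3.31 (adjusted p = 2.82e-05) and Ccl5 -19.5 kb, with 2 GATA motifs, from 33.3 ± 12.1 to 79.0 ± 11.4 (adjusted p = 0.00406). Cxcl12 +32.4 kb, near the ligand of Cxcr4, went from 3.02, 0, 0 and 42.5 to 29.4, 51.8, 38.7 and 56.9 (adjusted p = 0.0131), where the groups overlap. Mast cell and basophil markers moved in the same direction: their mean 5' end score was 22.5 to 32.8 in hi-77-/- GATA2 libraries and 8.26 to 15.2 in hi-77-/- empty libraries, with Fcer1a and Ms4a2 at 0 in all 16, and their part in these results was not tested.

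Among the sites that fell with GATA2 were several that were higher in hi-77-/- empty than in hi-77+/+ empty cells. Ccl2 -12.4 kb scored 23.1, 59.7, 34.7 and 41.2 in hi-77-/- empty libraries and had no peak in any hi-77-/- GATA2 or hi-77+/+ empty library (adjusted p = 0.000569 for GATA2 against empty). The Ccl2 5' end fell by 29.7 ± 6.59 (adjusted p = 0.00237) to 49.0, 66.6, 43.6 and 59.1, all below the hi-77-/- empty values and above the hi-77+/+ empty values. Ccl2 -20.1 kb, at 48.8 ± 8.502 with GATA2, did not pass (adjusted p = 0.112). Xcr1 +16.5 kb fell by 61.3, Cxcr5 +49.4 kb by 58.5 and Cxcl17 +27.7 kb by 56.6 (adjusted p = 1.47e-06, 3.03e-06 and 6.31e-06), with 1 of 4 GATA2 libraries holding a peak at each. Cxcl17 -20.0 kb went from 69.2 ± 2.49 to 4.83 ± 9.65 (adjusted p = 3.49e-05) and Ccr6 -36.5 kb from 68.8 ± 0.848 to 10.8 ± 13.9 (adjusted p = 1.96e-05). Cxcr2 +5.6 kb had no peak with GATA2 (adjusted p = 0.000102), and the Cxcl2 5' end, of a ligand of Cxcr2, fell from 36.7 ± 14.3 to 2.24 ± 3.68 (adjusted p = 0.00554). Cx3cr1 +14.4 kb fell by 36.5 (adjusted p = 0.00288). Because both comparisons use the hi-77-/- empty libraries, a high value there raises one difference and lowers the other.

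**Figure D2:**
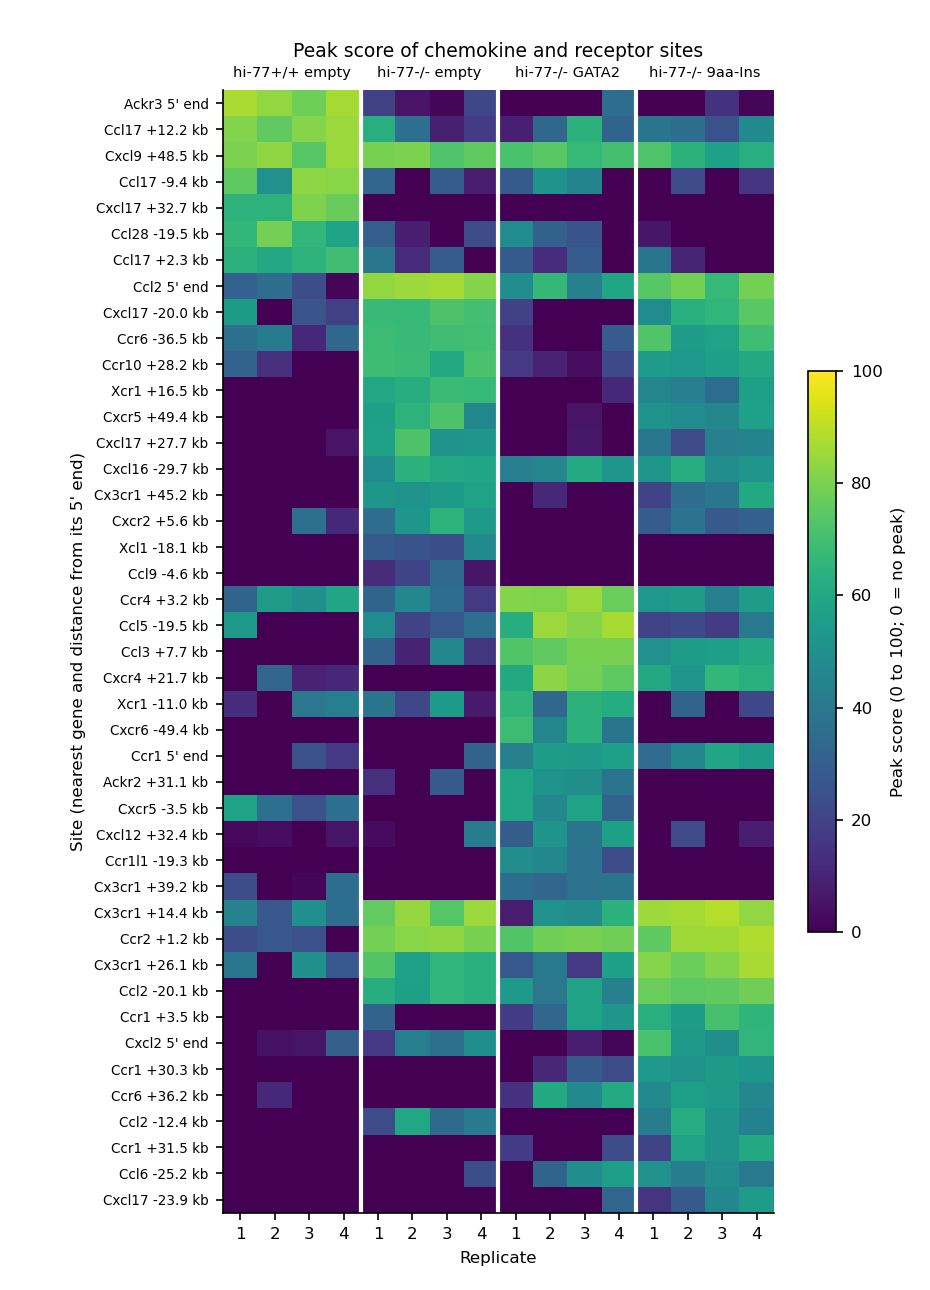
Peak score (colour, 0 to 100, 0 for no peak) of the sites with the largest differences, up to 8 in each direction of each comparison, in the 16 libraries. Rows are grouped by the group with the highest mean, and columns are replicates 1 to 4 of each group. The top rows, from the Ackr3 5' end down, are highest in hi-77+/+ empty libraries, Xcr1 +16.5 kb and Cxcr5 +49.4 kb are high in hi-77-/- empty and 9aa-Ins libraries, and Cxcr6 -49.4 kb has peaks in GATA2 libraries alone.

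The third comparison asked what 9aa-Ins did in hi-77-/- cells. Against the empty vector, 22 of 265 sites rose (8.30%, against 5.26% of all tested regions) and 3 fell (1.13%, against 1.75%). The median difference was 0.231 over the sites and 0 over all regions. Of 118 tested receptor sites 13 rose and 0 fell. By presence, 11 of 394 sites had a peak in 4 of 4 hi-77-/- 9aa-Ins and 0 of 4 hi-77-/- empty libraries (2.79%, against 1.35%), and 2 the reverse (0.508%, against 0.171%). Without hi-77-/- 9aa-Ins replicate 4 the number that rose was 13, and without replicate 2, 3 or 4 of that group the number that fell was 1 each time.

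Ccr1 had the most sites among those with the largest rises. Its 5' end scored 34.8, 45.9, 58.7 and 54.9 with 9aa-Ins, against 31.4 and lower in hi-77-/- empty libraries (adjusted p = 0.00523). Ccr1 +3.5 kb, in its intron, scored 62.6, 55.4, 71.1 and 65.4, where 1 of 4 hi-77-/- empty libraries had a peak at 32.0 (adjusted p = 0.000553). Ccr1 +30.3 kb (chr9:123938036-123938355) scored 53.2, 51.2, 54.4 and 52.5, where 1 hi-77-/- empty library had a peak at 0.380 (adjusted p = 3.35e-05). Ccr1 +31.5 kb scored 20.7, 57.4, 51.9 and 60.6 and had no peak in hi-77-/- empty cells. This site reached the minimum of 4 libraries only through the 9aa-Ins group, so no p-value is given for it. Cxcr4 +21.7 kb scored 60.2, 52.3, 66.3 and 63.1 (adjusted p = 3.87e-05) and Ccr6 +36.2 kb 47.3, 56.7, 53.6 and 46.3 (adjusted p = 0.000730), from no peak in both cases. Among ligands, Ccl6 -25.2 kb went from 1 library at 24.1 to 40.4 to 50.6 in all 4 (adjusted p = 0.0136), and Ccl3 +7.7 kb from 25.8 ± 16.1 to 55.7 ± 4.09 (adjusted p = 0.0132). Cxcl17 -23.9 kb went from no peak to 15.5 to 55.2. It too reached the minimum only through the 9aa-Ins group and is given without a p-value. The 3 sites that fell were Xcl1 -18.1 kb and Ccl9 -4.6 kb, which had peaks in hi-77-/- empty libraries only and entered the test through them alone, and Cxcl9 +48.5 kb, 1.01 kb from the 5' end of Naaa.

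**Figure D3:**
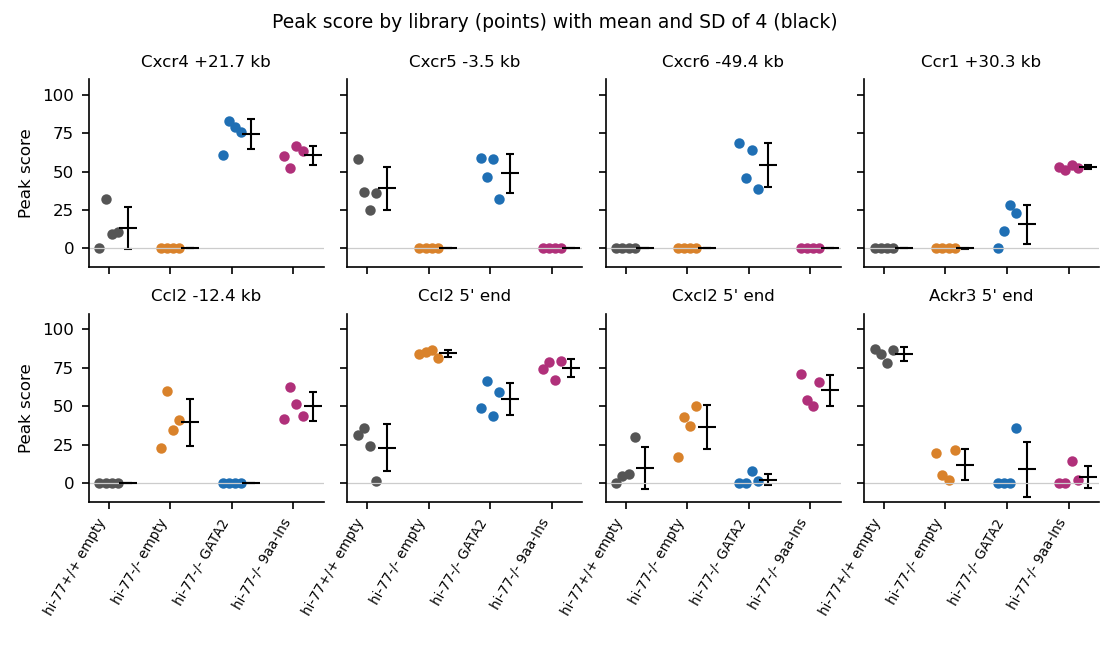
Peak score of 8 sites in each library (points, 4 per group) with the group mean and SD (black). Cxcr4 +21.7 kb is high with GATA2 and with 9aa-Ins, Cxcr5 -3.5 kb and Cxcr6 -49.4 kb are at 0 with 9aa-Ins, and Ccl2 -12.4 kb is at 0 in hi-77+/+ empty and GATA2 libraries.

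The fourth comparison set 9aa-Ins directly against GATA2. Of 265 sites, 53 were higher with 9aa-Ins (20%, against 16% of all tested regions) and 23 lower (8.68%, against 8.27%), with a median difference of 1.13 over the sites and 0.204 over all regions. Of 118 tested receptor sites 26 were higher and 14 lower, of 55 CXC ligand sites 12 and 2, and of 70 CC ligand sites 13 and 5. By presence, 11 of 394 sites had a peak in 4 of 4 hi-77-/- 9aa-Ins and 0 of 4 hi-77-/- GATA2 libraries (2.79%, against 2.97% of all regions), and 7 the reverse (1.78%, against 1.47%).

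Several sites that rose with GATA2 had no peak in any hi-77-/- 9aa-Ins library: Cxcr5 -3.5 kb (difference -48.8 ± 7.70, adjusted p = 8.77e-05) and, given without a p-value, Ackr2 +31.1 kb (-49.5 ± 6.83), Cxcr6 -49.4 kb (-54.3) and Ccr1l1 -19.3 kb (-39.0). The Ackr2 site, like the Cxcr6 and Ccr1l1 sites, reached the minimum of 4 libraries only through the GATA2 group. The Ackr2 window is a run of GCAG repeats, so the position of that site is uncertain. Ccl5 -19.5 kb scored 20.1, 21.9, 17.3 and 40.4 with 9aa-Ins and 62.2, 85.2, 81.8 and 86.8 with GATA2 (adjusted p = 0.000879), and Ccr4 +3.2 kb 51.7 ± 5.77 and 81.1 ± 3.12 (adjusted p = 0.00255). Both were also apart in every library. At Cxcr4 +21.7 kb, 9aa-Ins and GATA2 differed by -14.0 ± 7.54 (adjusted p = 0.205), at Ccr6 +36.2 kb by 5.02 ± 8.65 (adjusted p = 0.766) and at the Ccr1 5' end by -3.69 ± 8.71 (adjusted p = 0.846). These differences did not pass, and their standard errors are too wide to call the values equal.

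Several sites that fell with GATA2 were higher with 9aa-Ins than with GATA2. Both differences use the same hi-77-/- GATA2 libraries, so a low value there moves both, as a high value does for the sites above. Ccl2 -12.4 kb scored 41.9, 62.4, 51.7 and 43.9 with 9aa-Ins against no peak with GATA2 (adjusted p = 5.65e-05). The Cxcl2 5' end scored 71.2, 53.9, 49.96 and 65.8 against 0, 0, 7.69 and 1.28 (adjusted p = 4.55e-05). Cxcl17 -20.0 kb (adjusted p = 0.000107), Ccr6 -36.5 kb (adjusted p = 5.57e-05), Cxcr5 +49.4 kb (adjusted p = 2.16e-05) and Cx3cr1 +26.1 kb (adjusted p = 0.000696) were higher by 46.6 to 58.1. Ccr1 +30.3 kb and +31.5 kb, at 15.7 ± 12.6 and 10.1 ± 11.9 with GATA2, were higher with 9aa-Ins by 37.1 and 37.5 (adjusted p = 0.000220 for +30.3 kb, none given for +31.5 kb). Cxcr2 +5.6 kb scored 28.5, 37.9, 27.9 and 30.5 against no peak (adjusted p = 0.00818). Beside these Cxcr2 and Cxcl2 values, the 6 neutrophil markers had a mean 5' end score of 40.7 to 52.1 with 9aa-Ins, 11.7 to 30.4 with GATA2, 23.7 to 30.0 in hi-77-/- empty and 9.79 to 18.9 in hi-77+/+ empty libraries, with 4 to 6 of 6 holding a peak with 9aa-Ins and 2 to 4 with GATA2. B cell markers scored 38.9 to 44.4 with 9aa-Ins, 29.9 to 30.9 with GATA2, 39.9 to 49.6 in hi-77-/- empty and 29.3 to 39.1 in hi-77+/+ empty libraries, with Pax5 at 0 in all 16. Of these 6 markers, 3 to 4 held a peak with 9aa-Ins, 2 with GATA2, 3 to 4 in hi-77-/- empty and 2 to 4 in hi-77+/+ empty libraries. The part of the neutrophil and B cell markers in the results was not tested.

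**Figure D4:**
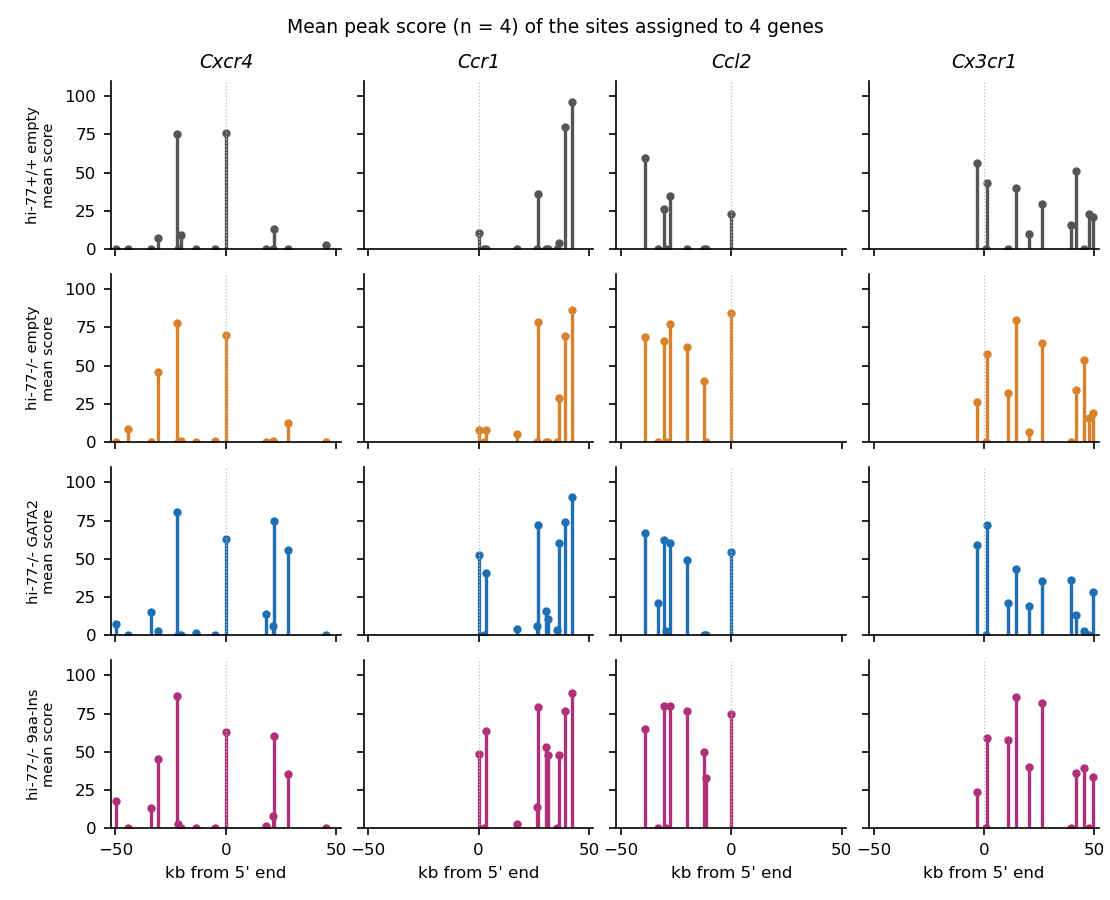
Mean peak score (n = 4 libraries) of the sites assigned to Cxcr4, Ccr1, Ccl2 and Cx3cr1, by distance from the gene 5' end in kb (positive is downstream), 1 row per group. The Cxcr4 5' end has a peak in every group and the site at +21.7 kb is high with GATA2 and 9aa-Ins, while the Ccl2 site at -20.1 kb is above 0 in the 3 hi-77-/- groups.

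Presence patterns over all 4 groups summarize the family. At 7 sites every hi-77+/+ empty library and no other had a peak (1.78%, against 1.04% of all regions). Only hi-77-/- empty libraries had them at 2 sites (0.508%, against 0.085%), Xcl1 -18.1 kb at 28.3, 25.9, 23.9 and 47.5 and Ccl9 -4.6 kb at 12.8, 20.6, 34.7 and 6.17. Only hi-77-/- GATA2 libraries had them at 4 sites (1.02%, against 0.797%), which besides the Cxcr6 and Ccr1l1 sites were Ccl2 -33.3 kb and Cxcl3 -10.1 kb. Only hi-77-/- 9aa-Ins libraries had them at 3 sites (0.761%, against 0.508%): Ccl2 -11.5 kb, Cxcr2 +2.4 kb and Cxcr3 -35.3 kb. The hi-77-/- empty and 9aa-Ins groups alone had them at 2 sites (0.508%, against 0.769%), Ccl2 -12.4 kb and Cxcr2 -19.6 kb, and the GATA2 and 9aa-Ins groups alone at 0 sites (against 0.0961%). All 12 hi-77-/- libraries but no hi-77+/+ empty library had them at 7 sites (1.78%, against 0.842%), among them Ccl2 -20.1 kb, Ccl3 +7.7 kb and Cxcl16 -29.7 kb. Ccl2 -33.3 kb, Ccl2 -11.5 kb, Cxcl3 -10.1 kb, Cxcr2 -19.6 kb, Cxcr2 +2.4 kb and Cxcr3 -35.3 kb were picked out after their values were seen.

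A GATA motif was in 84 of the 394 windows (21.3%, against 20.8% of all regions). Of the 29 sites that rose with GATA2, 14 held the motif (48.3%), as did 52% of all 4868 regions that rose. Of the 34 that fell, 2 held it (5.88%), against 11.1% of all 7080 regions that fell. Of the 22 sites that rose with 9aa-Ins, 5 held it (22.7%, against 20.1% of all such regions), and of the 23 that were lower with 9aa-Ins than with GATA2, 14 held it (60.9%, against 50.2%). The ETS motif AGGAAGT was in 62 of 394 windows (15.7%, against 14.3%) and the AP-1 motif TGANTCA in 36 (9.14%, against 9.47%), on either strand in both cases. Among sites that were higher in hi-77-/- empty than hi-77+/+ empty cells, 15 of 70 held the ETS motif (21.4%, against 23.1% of all such regions), and among those that were lower 2 of 45 (4.44%, against 7.26%). A match describes the letters of the window and does not show binding.

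**Figure D5:**
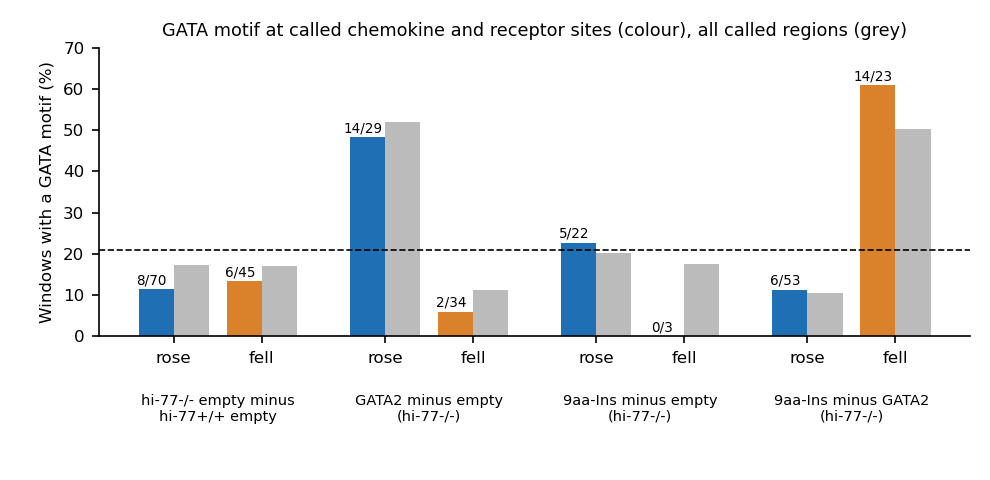
Percent of 151-base windows with a GATA motif among the chemokine and receptor sites that rose (blue) or fell (orange) in each comparison, with the counts above the bars, beside all regions that rose or fell (grey). The dashed line is the 20.8% of all regions, and the bars for sites that rose with GATA2 and for those lower with 9aa-Ins than with GATA2 stand above it.

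Genes that carry the signal inside the cell were read from a list of 30, among them the G protein subunit Gnai2, the kinase Pik3cg, the GTPase Rac2 and its activators Dock2, Elmo1, Prex1 and Vav1. They had 407 sites, of which 289 were tested. In hi-77-/- empty against hi-77+/+ empty cells 64 rose and 42 fell (22.1% and 14.5%, against 21.2% and 19.1% of all tested regions). With GATA2, 21 rose and 44 fell (7.27% and 15.2%, against 8.51% and 12.4%), with 9aa-Ins 10 and 4 (3.46% and 1.38%, against 5.26% and 1.75%), and with 9aa-Ins against GATA2 44 and 16 (15.2% and 5.54%, against 16% and 8.27%). The shares that rose lay near or below those of all regions. Of the 407 sites, 9 are also sites of the chemokine and receptor genes. Elmo1 +1.64 kb had mean scores of 4.30 in hi-77-/- empty, 60.2 with GATA2 (adjusted p = 6.75e-05) and 52.2 with 9aa-Ins (adjusted p = 0.00119). Pik3cg -4.00 kb had means of 75.0 in hi-77-/- empty, 11.4 with GATA2 (adjusted p = 1.60e-05) and 65.6 with 9aa-Ins. Rac2 -16.1 kb had means of 23.1 in hi-77+/+ empty, 85.3 in hi-77-/- empty (adjusted p = 2.64e-05), 21.7 with GATA2 (adjusted p = 3.35e-05) and 73.6 with 9aa-Ins. The 4 family genes with other symbols, Pf4, Ppbp, Ccrl2 and Cmklr1, had 29 sites, of which 8 are also sites of the chemokine and receptor genes. Of the 29, 19 were tested, and 7 rose and 1 fell in hi-77-/- empty against hi-77+/+ empty cells (36.8% and 5.26%, against 21.2% and 19.1%). Cmklr1 encodes the chemerin receptor of myeloid cells, and its site -19.8 kb had mean scores of 14.0 in hi-77+/+ empty and 74.2, 61.5 and 82.1 in the hi-77-/- empty, GATA2 and 9aa-Ins groups (adjusted p = 5.95e-06 for hi-77-/- empty against hi-77+/+ empty).

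Of 105 named values, 55 passed in every setting in which their site was tested, and the others did not pass in 1 or more settings. With 25000 peaks per library, the differences at Cxcr4 +21.7 kb with 9aa-Ins (22.5, adjusted p = 0.0817), at the Ccr1 5' end with GATA2 and 9aa-Ins (9.14 and 7.64, adjusted p = 0.152 and 0.374), at Ccr6 +36.2 kb with GATA2 and 9aa-Ins (11.7 and 6.08, adjusted p = 0.128 and 0.649) and at Ccr1 +30.3 kb with 9aa-Ins against empty and against GATA2 (7.53 both times, adjusted p = 0.113 and 0.0547) did not pass. Nor did Ccl3 +7.7 kb with 9aa-Ins (13.1, adjusted p = 0.172), Cx3cr1 +45.2 kb in hi-77-/- empty against hi-77+/+ empty cells (9.78, adjusted p = 0.0909) or Cxcr5 +49.4 kb for 9aa-Ins against GATA2 (4.88, adjusted p = 0.697). A shorter list gives its lower-ranked peaks the score 0. When a peak had to cover 50% of its region, Ccl5 -19.5 kb (36.6, adjusted p = 0.185), Ccr6 -36.5 kb (-17.4, adjusted p = 0.580) and Cxcr2 +5.6 kb (-25.2, adjusted p = 0.203) did not pass for GATA2 against empty, and neither did Ccr6 +36.2 kb (27.3, adjusted p = 0.132). In this setting Ccl5 -19.5 kb (-16.8, adjusted p = 0.532), Ccr4 +3.2 kb (-29.4, adjusted p = 0.106) and Cxcr2 +5.6 kb (14.8, adjusted p = 0.424) did not pass for 9aa-Ins against GATA2. Cxcr2 +5.6 kb (25.2, adjusted p = 0.136), Ccr6 -36.5 kb (17.4, adjusted p = 0.467), Ccl28 -19.5 kb (-36.4, adjusted p = 0.0844) and the Ccl3 5' end (45.1, adjusted p = 0.129) did not pass in hi-77-/- empty against hi-77+/+ empty cells. With 9aa-Ins, the fall at Cxcl9 +48.5 kb did not pass either (-12.8, adjusted p = 0.740). No single library decided the calls at Cxcr4 +21.7 kb, Cxcr5 -3.5 kb, Ccl2 -12.4 kb, Ccl2 -20.1 kb, Ccr2 +1.2 kb or the Ackr3 5' end, which passed without each library in turn. For the Cxcl2 5' end, the rise in hi-77-/- empty cells (26.6, adjusted p = 0.0174) did not pass without hi-77-/- empty replicate 4 (22.2, adjusted p = 0.0618) or hi-77+/+ empty replicate 1 (23.2, adjusted p = 0.0534). With 25000 peaks, with 50% cover and without peaks of 1 kb or more, that rise was 0.475, 10.8 and 27.7 (adjusted p = 1, 0.3995 and 0.120), and the fall at the Cxcl2 5' end with GATA2 was -0.475, -10.8 and -37.2 (adjusted p = 1, 0.510 and 0.0624), so neither passed. The fall at Ccl9 -4.6 kb with 9aa-Ins did not pass without hi-77-/- 9aa-Ins replicate 2, 3 or 4 or hi-77-/- empty replicate 3. This site entered the test through the hi-77-/- empty libraries alone, so no p-value is given for it. The fall at Cxcl9 +48.5 kb with 9aa-Ins (adjusted p = 0.0274) did not pass without hi-77-/- 9aa-Ins replicate 2, 3 or 4 or hi-77-/- empty replicate 1 or 2 (adjusted p = 0.0574, 0.103, 0.0692, 0.0811 and 0.0855 in this order). The broad sites at the Ccl3 5' end, Ccl9 +0.8 kb and Cx3cr1 +14.4 kb did not pass for hi-77-/- empty against hi-77+/+ empty when peaks of 1 kb or more were left out (adjusted p = 0.781, 0.285 and 0.124), although the differences at Ccl9 +0.8 kb (26.2) and Cx3cr1 +14.4 kb (38.6) stayed near their size and that at the Ccl3 5' end was 14.7. The fall at Cx3cr1 +14.4 kb with GATA2 (-36.4, adjusted p = 0.224), the rise at Ackr2 +31.1 kb with GATA2 (27.1) and the fall at Cxcl9 +48.5 kb with 9aa-Ins (-9.25, adjusted p = 0.175) did not pass in that setting.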

How the data were processed

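ATAC-Seq peak lists of 16 libraries, 4 per group, were used. The authors trimmed reads with Trim Galore 0.4.1, aligned them to mm10 with Bowtie2 2.2.5, removed duplicates with Picard 2.26.0 and ran MACS2 on every library on its own. The deposited peak files hold an integer score, a fold enrichment, a -log10 p-value, a -log10 q-value and the summit's distance from the peak start. Each library's 49000 peaks with the highest -log10 p were taken (ties by fold, then position), since the deposited lists differed in length. Fold values were whole multiples of 1 step per library (tolerance 0.01 of a step), which leaves few distinct p-values: the most peaks that shared one spanned 7.251 to 13.53 points of score.

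Peaks sharing at least 1 base were merged into 90549 regions. The 57174 with a peak in at least 4 libraries were tested on the peak score with limma 3.58.1 (R 4.3.3; empirical Bayes with trend and robust, all 4 groups in 1 fit) and Benjamini-Hochberg adjustment over all tested regions, at adjusted p 0.05. "Rose" and "fell" refer to this call. The study's own test used read counts, which the peak lists do not hold. The hi-77-/- libraries are called biological replicates in the study's methods, but how they were derived is not given in the sources used here, so p-values measure the spread between these libraries. The statistic was tested first on simulated normal scores. These lack the tied ranks of the peak lists and were not filtered by presence, so that test does not give the error rate for these data.

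Named sites were up to 8 per direction and comparison with the largest difference among those called, genes with a 5' end peak in 4 of 4 libraries of a group, and a list of 17 genes. Values of some sites are not reported here. Members, lists and rules were chosen with earlier results of these data known. Alternatives were list length, peak width, ranking by fold, overlap, filter, window, centring by chromosome, a replicate block, presence calls and leaving out each library. Deviations of same-numbered libraries had no correlation over 0.1 (0 of 24 pairs, highest 0.0912), and the test did not pair libraries by number. Of the 16 libraries, 8 correlated best with one of their own number, so a weak pairing cannot be settled from these values.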

Additional observations from a re-analysis of the deposited data

Results flagged for a closer look

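In 32 of 252 sets of 4 libraries at the named sites, 1 library stood apart from the others by Dixon's criterion for 4 values. Its chance rate of about 1 in 20 is for normal values and does not hold for these scores. A set with a single peak is always flagged, and a set without a peak never is. In 23 of the 32 the library was the only one of its group with a peak, and in 9 it was not.

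Among hi-77+/+ empty libraries, lone peaks stood at Ccl5 -19.5 kb (53.5), Ccr10 -0.3 kb (26.5), Cxcr3 +0.7 kb (19.6), Ccl9 -0.3 kb (13.7), Ccr6 +36.2 kb (11.1) and Cxcl17 +27.7 kb (5.45), and replicate 4 had none (0) at Ccr2 +1.2 kb, where the others did.

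Among hi-77-/- empty libraries, 1 library stood high at Cxcl12 +32.4 kb (42.5), Ccr1 +3.5 kb (32.0), the Ccr1 5' end (31.4), Ccl6 -25.2 kb (24.1), Cxcr2 -0.3 kb (14.5), the Cxcr2 5' end (1.81), Cx3cr1 +0.9 kb (0.441) and Ccr1 +30.3 kb (0.380), and low at the Cxcr3 5' end (8.73).

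Among hi-77-/- GATA2 libraries, 1 stood high at Ccr10 -0.3 kb (43.5), the Ackr3 5' end (35.55), Cxcl17 -23.9 kb (32.8), Cxcl17 -20.0 kb (19.3), Xcr1 +16.5 kb (11.7), Cx3cr1 +45.2 kb (11.7), the Cxcl2 5' end (7.69), Cxcl17 +27.7 kb (6.62), Cxcr5 +49.4 kb (5.19) and Ccl4 -0.2 kb (1.04), and low at the Ccr1 5' end (43.45) and Xcr1 -11.0 kb (32.9).

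Among hi-77-/- 9aa-Ins libraries, 1 stood high at the Ackr3 5' end (14.5), Ccl28 -19.5 kb (5.88), the Cxcr2 5' end (3.82) and Cxcl10 +0.4 kb (1.37).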

How the results depend on the processing

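Of 791 values of the named sites under other settings, 726 kept their direction and side of the threshold, 65 no longer passed and 0 reversed. Of 840 values without 1 library, 770, 70 and 0 did so, and 55 of 105 named values passed in every setting in which their site was tested. A site that a setting left out of the test is not counted as lost. With 25000 peaks per library 51 values passed and 19 did not, and with 50% cover 67 passed and 24 did not. The rest of the 105 were not tested in those settings. The cause of the losses was not tested.

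Counts of chemokine sites that rose and fell depended on the list and the call. For hi-77-/- empty against hi-77+/+ empty (70 and 45), they were 36 and 27 with 25000 peaks per library, 24 and 11 by presence, 14 and 13 by presence with all deposited peaks, 20 and 23 within 10 kb, and 39 rose when a peak had to cover 50% of its region. With 25000 peaks these were 27.7% and 20.8% of 130 tested sites, against 23.3% and 21.2% of all tested regions. With 50% cover 17.6% of 222 tested sites rose, against 13.4%. For GATA2 against empty (29 and 34), they were 15 and 18, 11 and 10, 8 and 11, 12 and 11, and 15 rose. For 9aa-Ins against empty (22 and 3), 11 rose with 25000 peaks, 11 by presence and 7 within 10 kb, and the falls were 1 with 50% cover, 0 by presence with all peaks and 1 within 10 kb. With 25000 peaks 8.46% rose (against 5.34%), and with 50% cover 0.45% fell (against 1.42%). For 9aa-Ins against GATA2 (53 and 23), they were 28 and 15 with 25000 peaks, 11 and 7 by presence and 15 and 10 within 10 kb, and 10 fell with 50% cover and 5 by presence with all peaks. Fewer sites enter with shorter lists or a narrower window. Shares over all regions were not computed within 10 kb, by presence with all deposited peaks or without 1 library.

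Without 1 library, the counts ran from 64 to 71 and 41 to 45, 22 to 28 and 28 to 32, 13 to 21 and 1 to 4, and 41 to 51 and 19 to 24 in the same order. The count of 13 was without hi-77-/- 9aa-Ins replicate 4, and 1 without its replicate 2, 3 or 4.

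With a replicate block the counts were 73 and 48, 29 and 33, 18 and 3, and 52 and 21, and 8 libraries correlated best with their own number. The shares with the block were 27.5% and 18.1%, 10.9% and 12.5%, 6.79% and 1.13%, and 19.6% and 7.92% of 265 sites. Over all tested regions they were 20.9% and 19%, 8.31% and 12.1%, 4.97% and 1.56%, and 15.7% and 8.1%. The block ended 3 calls, Ccl3 +7.7 kb (adjusted p = 0.0510) and Ccr10 -0.3 kb (adjusted p = 0.0534) for 9aa-Ins against GATA2 and the Ccl3 5' end (adjusted p = 0.0514) for GATA2 against empty. With tied peaks at their mean rank, a setting chosen after seeing the data, the counts were 69 and 45, 27 and 35, 21 and 3, and 51 and 21. These were 27.8% and 18.1%, 10.9% and 14.1%, 8.47% and 1.21%, and 20.6% and 8.47% of 248 sites. Over all tested regions they were 22.4% and 19.3%, 8.7% and 13.1%, 5.47% and 1.84%, and 16.8% and 8.41%. Ranking by fold and centring by chromosome ended no call of a named site. The peak lists limit these results: scores carry ranks, not reads, and a site below the list's end has the score 0.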
